A study of Mus musculus with 25 samples.

Results

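The genes of the collagen chains were measured in heart tissue of mice. The extraction protocol names the tissue as left ventricular, but atrial markers were high in 5 of the 25 libraries. All protein-coding genes of GENCODE mouse release M21 whose symbol is Col, a number, a and a number were taken, which gave 44 of the 35969 genes with transcripts in the table. The rule uses symbols alone. By class they were 11 fibrillar chains, 9 FACIT chains (chains that sit on the surface of fibrils), 6 basement membrane chains, 6 beaded filament chains of collagen VI, 4 transmembrane chains, 3 network chains, 2 multiplexins, 1 anchoring fibril chain and 2 others. In 21 of the 44, the mean level over the mice reached 1 scaled TPM (TPM is transcript abundance corrected for length and library total, here also scaled between libraries), and these 21 were tested.

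Poly(A) RNA of 25 male mice was sequenced, 5 in each of 5 groups. The mice were wild-type (WT) or GPx4+/- littermates, the latter carrying a single intact copy of Gpx4, the glutathione peroxidase that reduces lipid hydroperoxides. From 8 to 10 weeks of age they ate control chow (CNTL) or, for 16 weeks, a diet rich in fat and sucrose (HFHS), which gave WT CNTL, GPx4+/- CNTL, WT HFHS and GPx4+/- HFHS, and the remaining group, WT HFHS + Carnosine, also drank 80 mM carnosine from week 7. All mice were on a C57BL6/J background and were fasted and then given dextrose or saline before tissue was taken, and which mouse was given which is not stated in the sources used here. GPx4+/- mice on HFHS with carnosine were not analysed here. The diet comparisons ask whether the obesogenic diet moved collagen transcripts in either genotype, and the carnosine comparison asks whether the dipeptide did so in WT mice on that diet.

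Collagens are the main structural proteins of the extracellular matrix. Their chains wind into triple helices, which needs a glycine in each triplet of residues, and each class assembles differently: fibrillar chains (collagens I, III and V) into the cross-linked cables of the interstitium, basement membrane chains (collagen IV) into sheets around cardiomyocytes and vessels, collagen VI into beaded filaments next to those sheets, and FACIT and multiplexin chains onto the surfaces of other assemblies. In heart, interstitial fibroblasts are the main source of fibrillar collagen, while endothelial and mural cells make much of the collagen IV.

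The glycine repeat differs between chains in how long it runs without a break. Short stretches from the longest glycine repeat of 3 chains are shown because these chains lead their classes or carry a result, with each glycine codon in capitals (GENCODE M21 transcripts, GRCm38, 5′ to 3′ on the coding strand).
Col3a1: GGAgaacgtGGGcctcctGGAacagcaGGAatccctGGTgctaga
Col4a1: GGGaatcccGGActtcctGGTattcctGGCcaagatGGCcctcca
Col6a3: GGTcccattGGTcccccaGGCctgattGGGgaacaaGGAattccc
The repeat ran without a break for 344 triplets in the coding sequence of Col3a1, a fibrillar chain. In Col4a1 the longest unbroken run was 40 triplets, but 23 runs of at least 3 triplets together made up 78.9% of the codons. In Col6a3 the longest run was 45 triplets and such runs were 10.0% of its 3284 codons, since most of that chain is globular.

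Values were transcript TPM summed per gene, which hold neither read depth nor counting error. Mitochondrial transcripts took 31.3 to 48.7% of the TPM of a library, and scaling factors lay between 0.865 and 1.16. Gpx4 was lower in each of the 10 GPx4+/- libraries, with 382 scaled TPM in the highest of them, than in each of the 15 WT libraries, with 590.0 in the lowest. All 8 ventricular cardiomyocyte markers were measured, and their summed level was 47827 to 55434 scaled TPM in WT CNTL, 44331 to 51747 in WT HFHS, 46541 to 55285 in GPx4+/- CNTL, 44688 to 50208 in GPx4+/- HFHS and 45468 to 51105 with carnosine. A few libraries stood apart in markers of other tissue. Atrial markers were high in 5 libraries (GPx4+/- CNTL replicates 1 and 2, WT CNTL replicate 3, WT HFHS + Carnosine replicate 2 and GPx4+/- HFHS replicate 4), with scores of 2.80 to 6.58 log2 units above the median library. WT HFHS replicate 4 was high in smooth muscle markers, at 1.70 log2 units above the median, and in valve markers, at 2.89. These 6 libraries had an atrial score over 2.5 or a smooth muscle score over 1, limits set once the data had been seen. Hepatocyte scores were also high, at 7.45 in GPx4+/- CNTL replicate 2 and 4.12 and 3.41 in GPx4+/- HFHS replicates 1 and 3. Results below are given with and without the 6 libraries where it matters, and GPx4+/- HFHS replicates 1 and 3 stayed in those fits. In bulk tissue fewer cells of a type and less RNA per cell cannot be told apart.

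Collagen IV led the collagen transcripts of this heart tissue. On the TPM scale, which is per length, Col4a1 had the highest level of the 44 genes, with 95.9 ± 18.8 scaled TPM (SD, n = 5) in WT CNTL, and Col4a2, its partner in the basement membrane heterotrimer, came next with 66.3 ± 11.0. Col3a1, whose product forms a homotrimer, measured 29.5 ± 5.08 in the same group, Col1a2 26.6 ± 8.22 and Col1a1 17.6 ± 4.02. The collagen VI chains Col6a2 and Col6a1 lay at 20.0 ± 2.59 and 18.6 ± 2.16, and the multiplexin Col15a1 at 16.7 ± 3.03. A lower tier held Col4a5 at 7.80 ± 0.837, Col8a1 at 5.76 ± 1.39, Col6a3 at 5.41 ± 0.806 and Col5a1 at 5.34 ± 0.542.

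**Figure D1:**
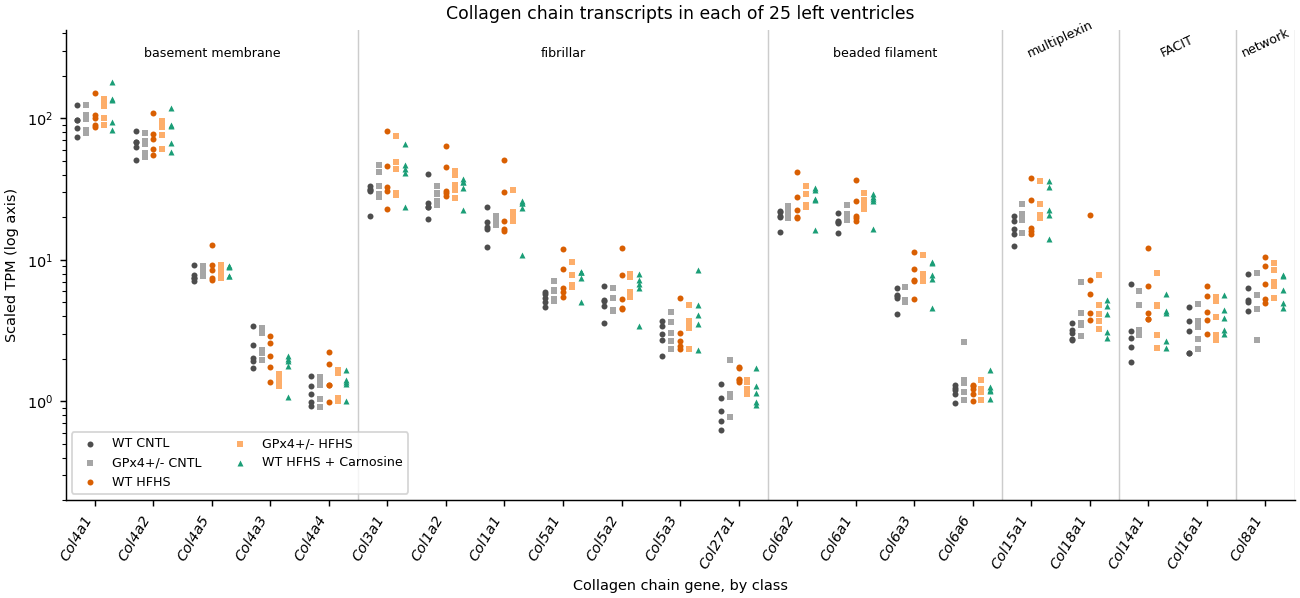
Scaled TPM on a log axis (y) of the 21 tested collagen chain genes (x, grouped by class), 1 point per mouse and colours for the 5 groups. Col4a1 lies above Col4a2, and Col4a2 above Col3a1, in each of the 25 mice, and Col4a3 and Col4a4 lie far below the other chains of their class.

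Several steps in the order of the leading chains held in every mouse. Col4a1 exceeded Col4a2, Col4a2 exceeded Col3a1, Col1a2 exceeded Col6a2 and Col1a1 exceeded Col4a5 in 25 of 25 mice. Between them, Col3a1 exceeded Col1a2 in 21 mice, Col6a2 exceeded Col6a1 in 21 and Col6a1 exceeded Col15a1 in 18. Other neighbours could not be ordered: Col15a1 lay above Col1a1 in 13 of 25 mice, Col6a3 above Col5a1 in 13 and Col14a1 above Col16a1 in 13. The 23 genes under the test limit had mean levels from 0.00532 to 0.790 scaled TPM. They included Col2a1 and Col10a1, chains of cartilage, at mean levels of 0.0224 and 0.00567, and Col7a1, the anchoring fibril chain of skin, at 0.271. Transcripts of the 4 transmembrane chains together summed to 1.05 ± 0.348 scaled TPM in WT CNTL.

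Summed over all 44 genes, collagen transcripts came to 401, 343, 349, 343 and 288 scaled TPM in the WT CNTL mice and 332, 456, 381, 695 and 327 in the WT HFHS mice. For GPx4+/- mice the sums were 329.5, 386, 365, 396 and 345 on CNTL and 449.5, 454, 376, 378 and 559.7 on HFHS. With carnosine they were 491, 399.5, 482, 292 and 591. The highest sum of all belonged to WT HFHS replicate 4, and without it the other 4 WT HFHS mice overlapped the WT CNTL mice. Basement membrane chains held 50.5 ± 6.08% of the sum in WT CNTL and 45.4 ± 4.97% in WT HFHS, fibrillar chains 25.8 ± 3.87% and 28.6 ± 3.43%, and beaded filament chains 13.1 ± 0.584% and 13.8 ± 1.06%. Multiplexins took 5.71 ± 0.445% in WT CNTL, FACIT chains 2.50 ± 1.06% and network chains 1.84 ± 0.494%. For the 3 largest classes the means on the 2 diets differed by less than the larger SD of the pair.

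**Figure D2:**
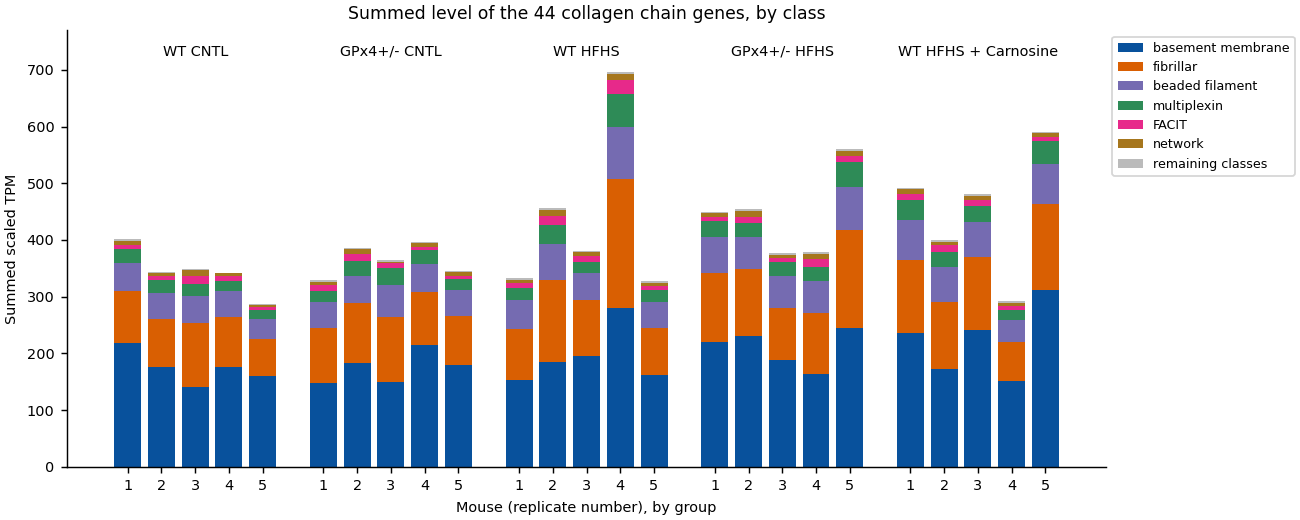
Summed scaled TPM of the 44 collagen chain genes (y) in each mouse (x, replicate number within group), stacked by class. The sums run from 288 in WT CNTL replicate 5 to 695 in WT HFHS replicate 4, with basement membrane and fibrillar chains as the largest blocks.

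Under the HFHS diet most collagen chains had higher values, but only Col6a3 and, downwards, Col4a3 passed the test in any comparison. Over both genotypes, 19 of the 21 tested genes had a log2 fold change above 0, where 49.1% of the 11983 genes tested did, and their median was 0.33 beside -0.0024 for all genes. One of the 21, Col6a3, passed at an adjusted p under 0.05 (limma, Benjamini-Hochberg over all genes), where 8.33% of all genes did (561 of the 998 called genes were higher, and 144 of 718 with TPM left unscaled). At an unadjusted p under 0.05, 11 of the 21 were higher (Col6a3, Col5a1, Col6a1, Col6a2, Col27a1, Col1a2, Col18a1, Col8a1, Col5a2, Col1a1 and Col16a1), against 12.7% of all genes. The members correlate from mouse to mouse, so these counts are not independent observations. Single mice also moved the number passing: it was 5 without WT HFHS replicate 5, 4 without GPx4+/- CNTL replicate 3, 3 without WT CNTL replicate 3, and 2 without WT CNTL replicate 1, GPx4+/- CNTL replicate 1 or WT HFHS replicate 1, 3 or 4, with Col6a3 among them each time. The calls over all genes ran from 799 to 1103 over the 20 fits that each left out 1 mouse.

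In WT mice none of the 21 passed, where 1.19% of all genes did, while 8 were higher at an unadjusted p under 0.05 (background 8.95%) and none was lower. That share was 142 genes, and with 1 mouse left out it ran from 36 (without WT CNTL replicate 2) to 202 (without WT CNTL replicate 3). Col18a1 and Col27a1 were the 2 genes whose WT HFHS mice all lay above every WT CNTL mouse, a pattern found in 2.28% of all genes. In GPx4+/- mice 1 of 21 passed, Col4a3, where 3.34% of all genes did (261 of the 400 called genes were higher, and 37 of 424 with TPM left unscaled). One gene, Col6a3, was higher at an unadjusted p under 0.05 (background 9.2%) and 1, Col4a3, was lower (background 9.15%), and the same genes were those without overlap between the groups (background 2.53% upwards and 1.94% downwards). The median log2 fold change was 0.35 in WT and 0.26 in GPx4+/- mice. Both medians depended on single mice: without WT HFHS replicate 4 the WT value was 0.16, and without GPx4+/- HFHS replicate 5 the GPx4+/- value was 0.14. With the smooth muscle marker score as a covariate the values were 0.065 in WT and 0.17 in GPx4+/- mice, and with the fibroblast score 0.12 and 0.16. The fibroblast score includes Lum and Mmp2, matrix genes that rose with diet themselves (below). A lower value under that covariate therefore cannot separate diet from cells.

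Marker lists of the cells that make matrix varied as well. The 8 smooth muscle markers, all above the limit, summed to 879 to 982 scaled TPM in WT CNTL, 913 to 1324 in WT HFHS, 877 to 985 in GPx4+/- CNTL, 849 to 991 in GPx4+/- HFHS and 816 to 978 with carnosine. For the fibroblast list, with 7 of 8 markers above the limit, the ranges were 814 to 1655, 1016 to 1681, 758 to 1409, 913 to 1757 and 913 to 1523 in the same order. The activated fibroblast list, with 5 of 6 markers above the limit, gave 12.7 to 80.8, 20.8 to 131, 17.2 to 70.9, 22.8 to 70.2 and 21.5 to 42.5. Sums of smooth muscle markers above 991 occurred only in WT HFHS, and the fibroblast sums overlapped between all groups. A sum is led by its most abundant markers and can hide a rise in the others. By smooth muscle score the highest library was WT HFHS replicate 4, at 1.70 log2 units above the median library. Next came GPx4+/- HFHS replicate 5, at 0.88, although no sum of its group passed 991. The markers under the limit were Lamc3 and Cthrc1. The covariate fits above cannot separate diet from these cells, and the part of these cells in the collagen values was not otherwise tested.

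**Figure D3:**
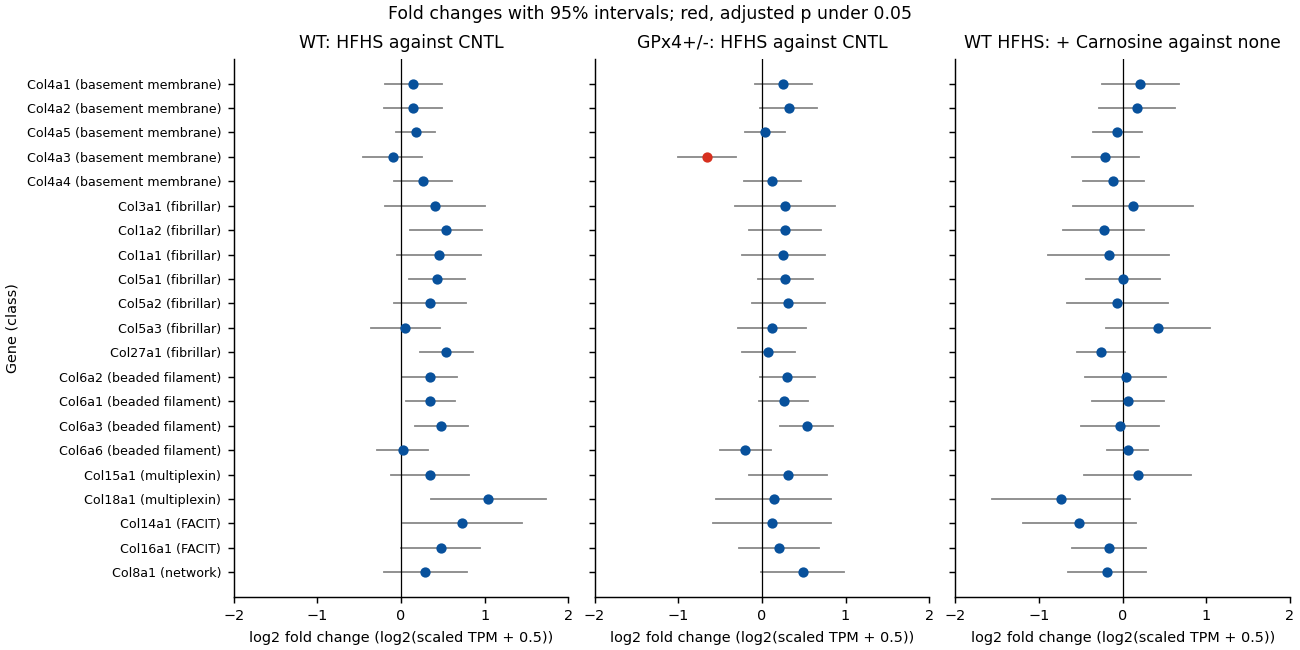
Log2 fold changes (x, on log2(scaled TPM + 0.5)) with 95% intervals of the 21 tested collagen chain genes (y, with class) for HFHS against CNTL in WT mice, in GPx4+/- mice, and for carnosine against none in WT HFHS mice. Most points of both diet panels lie to the right of 0, Col4a3 in GPx4+/- mice is the single red point, and the carnosine points lie on both sides of 0.

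Col6a3, the longest of the abundant chains of collagen VI, was the member that rose with diet. It measured 5.64, 5.57, 6.34, 5.40 and 4.12 scaled TPM in the WT CNTL mice and 7.21, 8.58, 7.09, 11.4 and 5.32 in the WT HFHS mice. The GPx4+/- mice gave 5.17, 5.05, 6.47, 5.09 and 5.13 on CNTL and 7.17, 7.88, 7.46, 7.14 and 10.8 on HFHS. Each of the 5 GPx4+/- HFHS mice lay above each GPx4+/- CNTL mouse, and 4 of 5 WT HFHS mice lay above the highest WT CNTL mouse. The log2 fold change over both genotypes was 0.51 (SE 0.11, adjusted p = 0.00636), a 1.42-fold difference on the scale with a pseudocount of 0.5. Within a genotype it was 0.48 in WT (adjusted p = 0.118, exact permutation p = 0.0397) and 0.54 in GPx4+/- mice (adjusted p = 0.0574, exact permutation p = 0.00794, the smallest that 5 against 5 allows). Without the 6 libraries that stood apart the value over both genotypes was 0.47 (adjusted p = 0.0217), and with the smooth muscle score as a covariate it was 0.37 and no longer passed (adjusted p = 0.0593). Leaving out any single mouse kept it between 0.44 and 0.57.

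The gene spans chr1:90765923-90843971 on the minus strand of GRCm38. Its main transcript (ENSMUST00000097653) carried 81.0% of the gene's TPM and measured 4.27 ± 0.875 scaled TPM in WT CNTL, 6.40 ± 2.10 in WT HFHS, 4.34 ± 0.649 in GPx4+/- CNTL and 6.49 ± 1.98 in GPx4+/- HFHS. A retained-intron transcript carried 12.8%.

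The other collagen VI chains had smaller values in the same direction, except Col6a6. Col6a1 was 18.6 ± 2.16 in WT CNTL and 24.4 ± 7.50 in WT HFHS, and 21.0 ± 2.08 and 25.3 ± 2.80 in GPx4+/- mice on the 2 diets. Col6a2 was 20.0 ± 2.59 and 26.3 ± 9.10 in WT, and 21.6 ± 1.45 and 27.0 ± 4.15 in GPx4+/- mice. Over both genotypes the log2 fold changes were 0.31 (adjusted p = 0.0593) for Col6a1 and 0.32 (adjusted p = 0.0747) for Col6a2, short of the threshold. Col6a1 passed without GPx4+/- CNTL replicate 3, WT HFHS replicate 3 or WT HFHS replicate 5 (adjusted p = 0.0495, 0.0473 and 0.0346), and Col6a2 without WT HFHS replicate 5 (adjusted p = 0.0456). Col6a6 had a value of -0.091 (95% interval -0.31 to 0.13).

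All 7 tested fibrillar chains had log2 fold changes above 0 in both genotypes, with medians of 0.42 in WT and 0.28 in GPx4+/- mice, and none passed the test. Col3a1 measured 33.2, 31.9, 30.8, 31.0 and 20.5 scaled TPM in WT CNTL and 30.7, 45.9, 32.5, 81.0 and 22.8 in WT HFHS. Among GPx4+/- mice Col3a1 measured 29.3, 41.5, 46.7, 33.0 and 27.8 on CNTL and 49.1, 44.2, 28.6, 29.7 and 75.0 on HFHS. In each genotype a single HFHS mouse, replicate 4 in WT and replicate 5 in GPx4+/-, was far above the others, and the remaining mice overlapped. Col1a1, the chain that occurs in 2 copies in each collagen I helix, measured 17.2, 16.5, 23.5, 18.4 and 12.3 in WT CNTL and 16.6, 30.0, 18.7, 50.4 and 15.9 in WT HFHS. For Col1a1 the GPx4+/- mice gave 19.1, 17.5, 20.3, 17.9 and 19.3 on CNTL and 21.9, 20.8, 18.9, 21.8 and 31.3 on HFHS. The 4 highest HFHS mice of this genotype lay above the highest CNTL mouse. Over both genotypes the log2 fold change was 0.34 for Col3a1 (SE 0.20, adjusted p = 0.32) and 0.36 for Col1a1 (SE 0.17, adjusted p = 0.199). Without WT HFHS replicate 4 these values were 0.21 and 0.22. Without GPx4+/- HFHS replicate 5 that of Col3a1 was 0.24.

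Col1a2, the partner of Col1a1, was 26.6 ± 8.22 in WT CNTL, 39.7 ± 15.4 in WT HFHS, 28.5 ± 3.37 in GPx4+/- CNTL and 34.9 ± 6.12 in GPx4+/- HFHS, and its log2 fold change over both genotypes was 0.41 (adjusted p = 0.0869). WT CNTL replicate 3, one of the libraries with atrial markers, had the highest Col1a2 of its group, and without the 6 libraries that stood apart Col1a2 passed at 0.42 (adjusted p = 0.0358). Without WT CNTL replicate 3 alone it was 0.49 (adjusted p = 0.0272). Col5a1, whose chain helps start fibrils, was 5.34 ± 0.542, 7.62 ± 2.67, 5.93 ± 0.778 and 7.36 ± 1.36 in the 4 groups in the same order, with 0.35 over both genotypes (adjusted p = 0.0584). It passed when GPx4+/- CNTL replicate 3, WT HFHS replicate 1 or WT HFHS replicate 5 was left out (adjusted p = 0.0485, 0.0427 and 0.0312). Col5a2 was at 0.33 and Col5a3 at 0.085.

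Col27a1, a fibrillar chain better known from cartilage and named here after its values were seen, was low throughout. It measured 1.05, 0.626, 1.32, 0.722 and 0.852 scaled TPM in WT CNTL and 1.37, 1.75, 1.44, 1.72 and 1.40 in WT HFHS, with no overlap. In GPx4+/- mice it measured 1.13, 1.07, 1.96, 1.11 and 0.776 on CNTL and 1.41, 1.19, 1.23, 1.13 and 1.37 on HFHS, and the groups overlapped. The log2 fold change was 0.54 in WT (adjusted p = 0.0817, exact permutation p = 0.00794) and 0.079 in GPx4+/- mice, and the difference between these effects was -0.46 (adjusted p = 0.691). It passed in WT when WT CNTL replicate 3 was left out (adjusted p = 0.0395). Only 41.3% of its TPM fell on transcripts annotated as protein-coding.

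Col4a1 and Col4a2, the most abundant pair, had log2 fold changes that did not pass. Over the 5 tested chains of the class the median was 0.15 in WT and 0.12 in GPx4+/- mice. Col4a1 measured 125, 96.7, 74.3, 97.4 and 86.1 scaled TPM in WT CNTL and 87.3, 101, 106, 152 and 89.3 in WT HFHS, where 1 mouse, replicate 4, lay above all the WT CNTL mice. Among GPx4+/- mice Col4a1 measured 82.5, 105, 79.4, 124 and 98.3 on CNTL and 121, 133, 101, 89.9 and 137 on HFHS. The log2 fold change of Col4a1 over both genotypes was 0.20 (95% interval -0.04 to 0.44, adjusted p = 0.3) and that of Col4a2 was 0.23 (95% interval -0.01 to 0.47, adjusted p = 0.227). Col4a5, an X-linked chain, was 7.80 ± 0.837 in WT CNTL and 9.02 ± 2.24 in WT HFHS, with a log2 fold change over both genotypes of 0.11 (95% interval -0.061 to 0.27). Its neighbour Col4a6, which starts 1308 bases away on the other strand, was under the test limit at 0.279.

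Col4a3, a chain best known from the glomerular basement membrane, was the member that fell. It measured 1.95, 2.30, 3.03, 2.18 and 3.28 scaled TPM in GPx4+/- CNTL and 1.30, 1.49, 1.43, 1.28 and 1.56 in GPx4+/- HFHS, so that every HFHS mouse lay below every CNTL mouse. In WT mice it measured 1.73, 1.93, 3.41, 2.52 and 2.02 on CNTL, 1.37, 1.74, 2.08, 2.92 and 2.58 on HFHS and 2.08, 1.97, 1.94, 1.08 and 1.78 on HFHS with carnosine, and these groups overlapped. The log2 fold change in GPx4+/- mice was -0.66 (SE 0.17, adjusted p = 0.0384, exact permutation p = 0.00794). In WT it was -0.10 (adjusted p = 0.814), and the difference between the genotypes was -0.56 (SE 0.24, adjusted p = 0.69), which did not pass. The call depended on single mice. It was lost when GPx4+/- CNTL replicate 3, 4 or 5 was left out (adjusted p = 0.0891, 0.0522 and 0.0806) and when any one of GPx4+/- HFHS replicates 1 to 5 was left out (adjusted p = 0.0848, 0.0558, 0.0693, 0.0657 and 0.0644), with log2 fold changes between -0.73 and -0.57. Without the 6 libraries that stood apart it was -0.76 (adjusted p = 0.0268).

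The lower values of Col4a3 were those of 1 short transcript. This transcript (ENSMUST00000152664) is 627 bases long, spans chr1:82715304-82718982 on the plus strand, covers only the last exons and carried 62.5% of the TPM of the gene. It measured 1.19, 1.41, 2.54, 1.34 and 2.77 scaled TPM in GPx4+/- CNTL and 0.576, 0.446, 0.888, 0.351 and 0.790 in GPx4+/- HFHS. All 5 HFHS mice lay below all 5 CNTL mice (exact permutation p = 0.00794, not adjusted and on a transcript chosen after its values were seen). The full-length transcript (ENSMUST00000113457), of 8554 bases, measured 0.663 ± 0.159 and 0.729 ± 0.193 in these groups (exact permutation p = 0.563). The short transcript shares 444 bases with the full-length one and then skips the 173-base exon at chr1:82717833-82718005. The bases on both sides of that junction are shown to mark the only internal difference between the transcripts, with the exon after the junction in capitals (GENCODE M21 transcripts, 5′ to 3′).
Col4a3 short: ttttctttcattatgAAAACCTATTCCATC
Col4a3 full-length: ttttctttcattatgTTCACAAGTGCAGGC
Since all of its bases lie in exons of the full-length transcript, its TPM is an estimate by the quantifier and not a direct count, and without reads the split could not be checked. With transcripts of the GENCODE basic set alone, which leaves the short transcript out, Col4a3 fell under the limit of 1 scaled TPM and had no test. An antisense gene, C430014B12Rik, is annotated on the other strand across this region. Its level was not analysed here, its part in the TPM of the short transcript was not tested, and whether the quantification used strand is not given in the sources used here.

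Col4a4, the head-to-head partner of Col4a3, did not pass. It measured 1.38, 1.47, 1.04, 1.31 and 0.918 scaled TPM in GPx4+/- CNTL and 1.00, 1.58, 1.06, 1.64 and 1.67 in GPx4+/- HFHS, with a log2 fold change of 0.12 (95% interval -0.22 to 0.47). The starts of the 2 genes are 71 bases apart, and that interval, chr1:82586850-82586920 of GRCm38, is shown 5′ to 3′ on the plus strand because a single stretch serves as upstream sequence of both, with CpG dinucleotides in capitals (RefSeq, GRCm38.p6).
Col4a4-Col4a3 interval: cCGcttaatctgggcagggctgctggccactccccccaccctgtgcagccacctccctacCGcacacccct
It is 69.0% G or C, with 2 CpG. Promoter sequence (the 250 bases before the start) was found for 35 of the 44 genes in the RefSeq table. The motif GGGCGG occurred on either strand in 21 of the 35, against 35.4% of all 27025 genes. The motif CCAAT occurred in 13 of the 35, against 37.5% of all genes. The motif TATAA occurred in 7 of the 35, against 25.8% of all genes. No motif is part of another, and the interval above holds none of them. A match of such short letters is a description of the window and says nothing of binding.

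**Figure D4:**
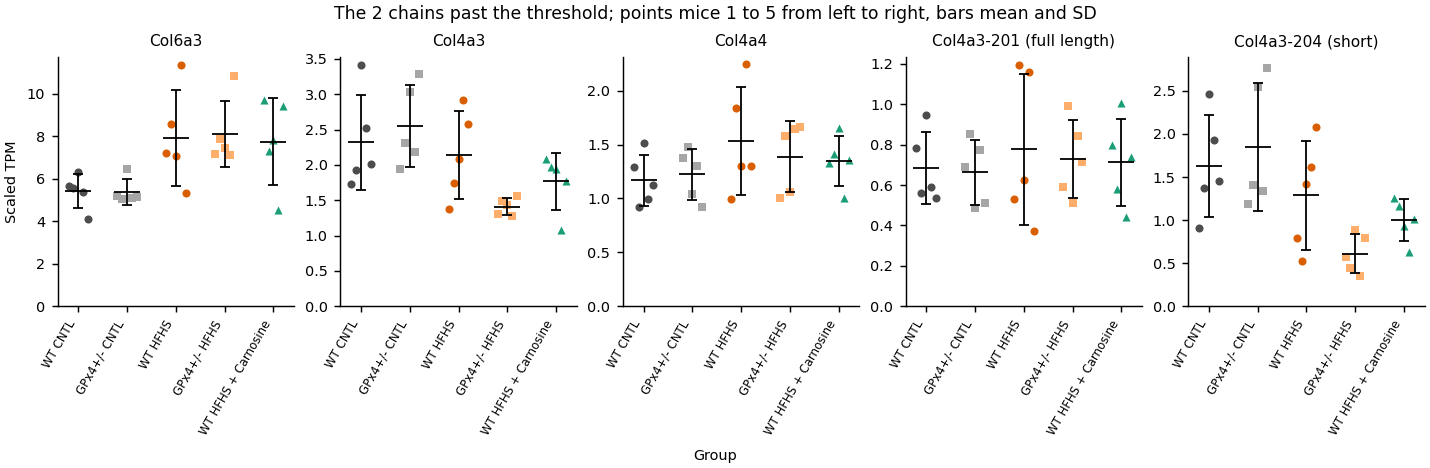
Scaled TPM (y, from 0) in each mouse by group (x) of Col6a3, Col4a3, Col4a4 and the full-length and short transcripts of Col4a3, with bars for mean and SD (n = 5). Col6a3 is higher in most HFHS mice, Col4a3 and its short transcript have their lowest group means in GPx4+/- HFHS, and the full-length transcript overlaps between all groups.

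Among multiplexins, Col18a1, the source chain of endostatin and named after its values were seen, had the largest log2 fold change of the 21 genes in WT mice, 1.04 (SE 0.33, adjusted p = 0.115, exact permutation p = 0.00794). It measured 3.21, 3.03, 3.56, 2.75 and 2.70 scaled TPM in WT CNTL and 4.20, 7.26, 3.76, 20.9 and 5.71 in WT HFHS, without overlap. One mouse, WT HFHS replicate 4, had a level several times that of its group, and without it the value was 0.66 (adjusted p = 0.203). The transcript ENSMUST00000081654 carried 75.3% of the gene and reached 18.9 in that mouse. In GPx4+/- mice Col18a1 was 4.22 ± 1.58 on CNTL, with the highest value in replicate 2, a library in which albumin was at 736 scaled TPM, and 4.72 ± 1.80 on HFHS. The log2 fold change there was 0.14 (95% interval -0.54 to 0.83). Col15a1, the other multiplexin, was 16.7 ± 3.03 in WT CNTL, 22.5 ± 9.82 in WT HFHS, 19.2 ± 3.97 in GPx4+/- CNTL and 24.2 ± 6.95 in GPx4+/- HFHS, with 0.33 over both genotypes (adjusted p = 0.206).

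Of the network chains only Col8a1, a short chain of vessel walls, was tested. It was 5.76 ± 1.39 in WT CNTL, 7.30 ± 2.42 in WT HFHS, 5.30 ± 1.94 in GPx4+/- CNTL and 7.37 ± 1.64 in GPx4+/- HFHS, and its log2 fold change over both genotypes was 0.39 (SE 0.17, adjusted p = 0.155). The FACIT chains Col14a1 and Col16a1 had values of 0.43 (95% interval -0.073 to 0.93) and 0.34 (95% interval 0.0035 to 0.68). Within WT mice Col14a1 was 3.40 ± 1.94 on CNTL and 6.08 ± 3.52 on HFHS, with its highest values in WT CNTL replicate 3 and WT HFHS replicate 4, both high in valve markers (2.93 and 2.89 log2 units above the median library). The part of those cells in the Col14a1 values was not tested.

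Most of the partner chains examined varied together across mice, and so did many chains of different classes. After centring each group, over 25 mice, Col4a1 and Col4a2 gave Pearson's r = 0.97 (permutation p = 1e-05, adjusted p = 3e-05), Spearman's rho = 0.96 (permutation p = 1e-05, adjusted p = 4.5e-05). Their genes start in opposite directions with the first 22 bases overlapping on chromosome 8. Col6a1 and Col6a2 gave Pearson's r = 0.97 (permutation p = 1e-05, adjusted p = 3e-05), Spearman's rho = 0.95 (permutation p = 1e-05, adjusted p = 4.5e-05). Col1a1 and Col1a2 gave Pearson's r = 0.90 (permutation p = 2e-05, adjusted p = 4.5e-05), Spearman's rho = 0.84 (permutation p = 0.00014, adjusted p = 0.000315). Without the 2 mice farthest out on the first gene of each pair, r was 0.96, 0.93 and 0.85. Col4a3 and Col4a4 had the lowest r of the 9 pairs examined, with Pearson's r = 0.32 (permutation p = 0.171, adjusted p = 0.171), Spearman's rho = 0.21 (permutation p = 0.352, adjusted p = 0.352), and r fell to 0.15 without the 2 farthest mice. Of the 2 pairs of different classes among the 9, Col4a1 and Col15a1 gave Pearson's r = 0.71 (permutation p = 0.00103, adjusted p = 0.00132), Spearman's rho = 0.64 (permutation p = 0.00206, adjusted p = 0.00265), and without the 2 farthest mice r was 0.60. Col1a1 and Col4a1 gave Pearson's r = 0.54 (permutation p = 0.0182, adjusted p = 0.0205), Spearman's rho = 0.35 (permutation p = 0.119, adjusted p = 0.134), and without the 2 farthest mice r was 0.27, so that this relation rests on those mice. Over all pairs of tested members the median r was 0.69 among fibrillar chains, 0.38 among basement membrane chains, 0.75 between fibrillar and beaded filament chains and 0.74 between fibrillar chains and multiplexins. All pairs share the same libraries, and 1e-05 is the smallest p that the permutations drawn can give.

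**Figure D5:**
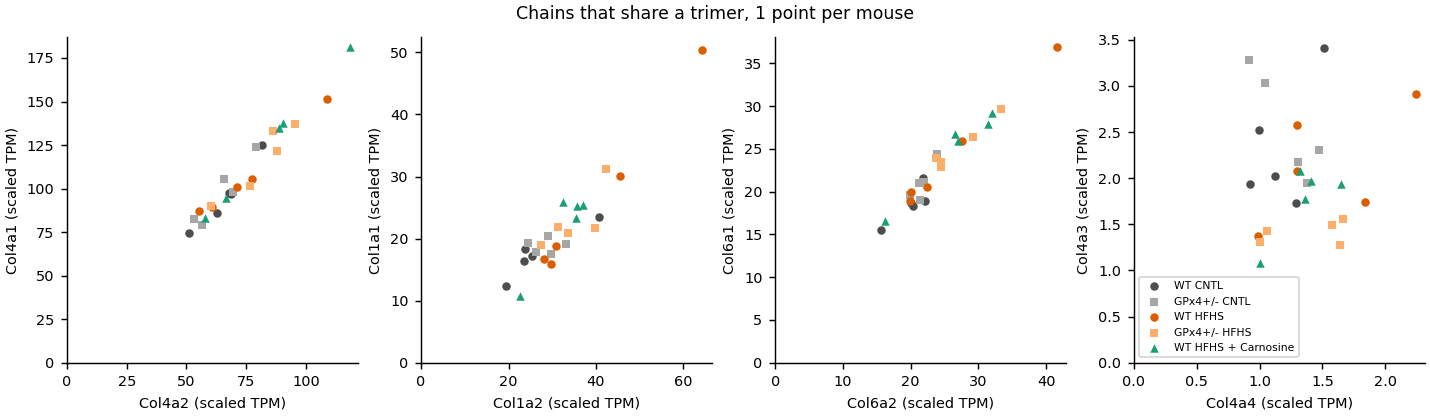
Scaled TPM of Col4a1 against Col4a2, Col1a1 against Col1a2, Col6a1 against Col6a2 and Col4a3 against Col4a4 (both axes from 0), 1 point per mouse with colours for the 5 groups. The first 3 pairs fall close to a line through the groups, while Col4a3 and Col4a4 scatter, with the GPx4+/- HFHS mice in the lower part.

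The ratios of partner chains were compared in 21 tests (7 ratios by 3 comparisons, exact permutation, two-sided, p adjusted over the 21). The Col1a1/Col1a2 ratio of TPM was 0.672 ± 0.0741 in WT CNTL and 0.635 ± 0.0949 in WT HFHS, and Col4a1/Col4a2 was 1.44 ± 0.0610 and 1.45 ± 0.0831. Neither differed beyond the spread (exact permutation p = 0.5 and 0.913). Col6a3/Col6a1 was 0.256 ± 0.0142 in GPx4+/- CNTL and 0.319 ± 0.0339 in GPx4+/- HFHS (exact permutation p = 0.00794, adjusted p = 0.0833), and Col4a3/Col4a4 was 2.23 ± 0.962 and 1.06 ± 0.252 (exact permutation p = 0.00794, adjusted p = 0.0833). For both ratios no mouse of one group overlapped the other, and both missed the threshold after adjustment. Col1a1/Col3a1 was 0.618 ± 0.0611 in WT HFHS and 0.507 ± 0.0800 with carnosine (exact permutation p = 0.0397, adjusted p = 0.278).

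No collagen chain passed the test between the genotypes. That was so for all 21 with CNTL mice, with HFHS mice and with both sets in 1 contrast, where 0.0501%, 0.0501% and 0.0584% of all genes did. At an unadjusted p under 0.05 the single member was Col4a3, lower in GPx4+/- HFHS than in WT HFHS, with a log2 fold change of -0.43 (adjusted p = 0.979, background 2.37% lower). On CNTL 18 of the 21 had a log2 fold change above 0 (GPx4+/- against WT), where 50.2% of all genes did, on HFHS 11 (background 48.9%) and over both diets 15 (background 49.6%). The median log2 fold changes were 0.12, 0.0084 and 0.028. With 1 mouse left out they ran from 0.054 to 0.18 on CNTL (lowest without WT CNTL replicate 5, highest without WT CNTL replicate 3), -0.089 to 0.16 on HFHS and -0.021 to 0.13 over both (lowest without WT HFHS replicate 5 and highest without WT HFHS replicate 4 in each), so that the last 2 changed sign. For the interaction of diet and genotype, 0 of the 21 and 0% of all genes passed, and at an unadjusted p under 0.05 there were 2 members, Col4a3 and Col27a1, both with a lower diet effect in GPx4+/- mice (background 3.5% lower). The median interaction was -0.14, and 0.068 without WT HFHS replicate 4, so that its sign depended on that mouse.

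Carnosine had no collagen gene past the threshold. Between WT HFHS + Carnosine and WT HFHS, 0 of the 21 and 0% of all genes passed (limma), no member reached an unadjusted p under 0.05, and 9 of the 21 showed a log2 fold change above 0, where 49.6% of all genes did. The median was -0.062, with no steady sign: with 1 mouse left out it ran from -0.14 without WT HFHS replicate 5 through 0.0065 without WT HFHS replicate 2 and 0.10 without WT HFHS replicate 4 to 0.11 without WT HFHS + Carnosine replicate 4. Intervals were wide: -0.89 to 0.56 for Col1a1, -0.60 to 0.84 for Col3a1, -0.25 to 0.67 for Col4a1 and -0.50 to 0.44 for Col6a3. Col6a3 measured 9.69, 7.29, 7.82, 4.54 and 9.44 scaled TPM with carnosine, where replicate 4 lay below all WT HFHS mice and the other 4 lay within their range. The lowest estimate was that of Col18a1, -0.73 (adjusted p = 0.947), where WT HFHS replicate 4 alone measured 20.9. Within the carnosine group replicate 5 had the highest Col4a1 of all 25 mice, 181, and the highest Col5a3, 8.41, with a smooth muscle score of -0.47, while replicate 4 was lowest of its group in Col3a1, Col1a1, Col6a1 and Col5a1.

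Set against WT CNTL instead, which the WT diet comparison also uses, the carnosine mice gave 0 calls of 21, where 0.234% of all genes passed. Of the 21, 6 were higher at an unadjusted p under 0.05 (Col6a3, Col6a1, Col5a1, Col6a2, Col3a1 and Col15a1; background 6.9%), and the median log2 fold change was 0.31. Leaving out WT HFHS + Carnosine replicate 4 gave 2 calls, Col5a1 and Col6a1, in a fit in which 78 of all genes passed, against 28 with all mice. Side by side, the log2 fold changes against WT CNTL without and with carnosine were 0.48 and 0.45 for Col6a3, 0.40 and 0.53 for Col3a1, 0.45 and 0.29 for Col1a1 and 1.04 and 0.31 for Col18a1. Without WT HFHS replicate 4 the values without carnosine were 0.35 for Col6a3, 0.14 for Col3a1, 0.19 for Col1a1 and 0.66 for Col18a1.

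Genes that make, bind and break down collagen were described from 6 lists of 74 genes, of which 57 were tested. Over both genotypes 8 of the 57 rose with diet and none fell, where 8.33% of all genes passed in either direction, and the median log2 fold change of the 57 was 0.12. In the endoplasmic reticulum list 3 of 17 rose. P4ha2, a subunit of the prolyl 4-hydroxylase that stabilises the helix, was 27.9 ± 0.536 scaled TPM in WT CNTL, 35.9 ± 2.41 in WT HFHS, 25.7 ± 2.31 in GPx4+/- CNTL and 36.8 ± 2.41 in GPx4+/- HFHS. Each HFHS mouse lay above each CNTL mouse of its genotype, and P4ha2 passed in WT (0.36, adjusted p = 0.00588), in GPx4+/- (0.51, adjusted p = 0.000299) and over both (0.44, adjusted p = 1.6e-05). With carnosine P4ha2 was 35.0 ± 4.20. P4ha1, another catalytic subunit, rose by 0.33 (adjusted p = 0.00761), and Serpinh1, the collagen chaperone HSP47, by 0.31 (adjusted p = 0.00784). Among 13 matrix proteins that bind fibrils, Sparc rose by 0.34 (adjusted p = 0.0327) and Lum, lumican, by 0.55 (adjusted p = 0.0395). Of 7 receptors, the integrin subunits Itgb1 and Itga11 rose by 0.15 and 0.39 (adjusted p = 0.0381 and 0.0438). Of 7 genes of breakdown, the gelatinase Mmp2 rose by 0.44 (adjusted p = 0.0201). None of 9 genes of secretion and propeptide removal and none of 4 cross-linking genes passed, and their medians were 0.06 and 0.17. With carnosine against WT HFHS, 0 of the 57 passed.

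The genes outside the family whose levels followed the leading chain of each class most closely are given as a description, by Pearson's r over the 25 group-centred mice. For Col3a1 they were Msn (0.91), Loxl1 (0.90), Tuba1a (0.89), Cap1 (0.88) and Ptma (0.86). For Col4a1 they were Cd93 (0.94), Fbn1 (0.93), Ube2c (0.90), Rhoc (0.88) and Rnf144a (0.87). For Col6a2 they were Tuba1a (0.94), Msn (0.92), Pea15a (0.92), Loxl1 (0.89) and Actb (0.89) and for Col15a1 Msn (0.92), Myh9 (0.90), Pdia4 (0.89), Actb (0.89) and Tuba1a (0.88). For the FACIT chain Col14a1 they were Itih5 (0.95), Anxa1 (0.94), Ccdc80 (0.94), Pmp22 (0.93) and Mxra8 (0.93), and for Col8a1 Mybpc2 (0.94), Itgbl1 (0.90), Pdzd3 (0.87), Cilp (0.87) and Xirp2 (0.87). Cd93 is an endothelial surface protein and Loxl1 a lysyl oxidase-like enzyme of elastic fibres. Against the marker scores, Col4a1 had r = 0.80 with endothelium and -0.19 with fibroblasts, while Col14a1 had -0.23 and 0.91, Col1a2 -0.014 and 0.83 and Col6a3 0.40 and 0.39. Other lists were correlated as well: r with macrophages was 0.84 for Col1a2, 0.84 for Col14a1 and 0.56 for Col6a3, and r with ventricular cardiomyocytes was -0.78, -0.63 and -0.58. For the same 3 chains r was 0.77, 0.89 and 0.33 with valve and cartilage-like markers, and 0.51, 0.75 and 0.073 with atrial cardiomyocytes. The highest r of Col6a3 over the 14 lists was that with macrophages, followed by 0.52 with activated fibroblasts. Col18a1 was the member with the highest r with smooth muscle, 0.72. These values share libraries and the few high mice named above.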

How the data were processed

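Poly(A) RNA of heart tissue, left ventricular per the labels' extraction protocol, was sequenced in 25 mice. The authors deposited TPM per transcript and library. The labels' processing fields name kallisto 0.43.1, sleuth 0.30.0 and GRCm38 without their roles, while the study's methods describe other tools for gene counts that were not used here. Columns went to mice by the library number in the header, which contradicts the positions listed for them in the labels. A transcript length column was not used. Of 119215 transcripts, 116772 matched GENCODE M21, and TPM were summed per gene, scaled by median ratios and taken to log2 with a pseudocount of 0.5. Genes whose mean reached 1 scaled TPM, 11983 in all, were fitted with limma 3.58.1 (R 4.3.3), 1 fit for the 4 diet and genotype groups and 1 fit per carnosine comparison, with Benjamini-Hochberg adjustment over all genes. This replaced the study's count test, because TPM are not counts and carry no depth. Single values used exact permutation tests (two-sided). The fit was tested on simulated data first. Members were chosen by symbol, and the genes named were the 12 with the highest mean level, those past the threshold, the 8 pathway genes with the smallest p over both genotypes, and the 5 genes most like the leading chain of each of 6 classes. Beyond that rule, Col18a1 and Col27a1 were named after their values were seen. Some other members, such as Col4a4, Col5a2, Col5a3, Col6a6, Col14a1 and Col16a1, were named to describe their class. Members and lists were chosen with earlier results of these data known. Replicates are separate mice.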

Additional observations from a re-analysis of the deposited data

Results flagged for a closer look

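In all, 9 values stood apart from the other 4 mice of their group, over 70 groups of 5 values searched (13 named chains and their sum in 5 groups), where chance alone gives about 1 in 20, or 3.5. A value was listed when its gap to the nearest other mouse was over 0.71 of the range of the group. On the high side were Col4a1 in WT HFHS replicate 4 (152 scaled TPM, the other 4 mice 87.3 to 106, gap 0.712 of the range), Col1a2 in WT CNTL replicate 3 (40.8 scaled TPM, the other 4 mice 19.5 to 25.3, gap 0.724 of the range), Col1a1 in GPx4+/- HFHS replicate 5 (31.3 scaled TPM, the other 4 mice 18.9 to 21.9, gap 0.76 of the range), Col6a3 in GPx4+/- CNTL replicate 3 (6.47 scaled TPM, the other 4 mice 5.05 to 5.17, gap 0.914 of the range) and Col6a3 in GPx4+/- HFHS replicate 5 (10.8 scaled TPM, the other 4 mice 7.14 to 7.88, gap 0.799 of the range). On the low side were Col3a1 in WT CNTL replicate 5 (20.5 scaled TPM, the other 4 mice 30.8 to 33.2, gap 0.81 of the range), Col6a1 in WT HFHS + Carnosine replicate 4 (16.6 scaled TPM, the other 4 mice 25.9 to 29.1, gap 0.743 of the range), Col1a1 in WT HFHS + Carnosine replicate 4 (10.7 scaled TPM, the other 4 mice 23.4 to 25.9, gap 0.831 of the range) and Col5a1 in WT HFHS + Carnosine replicate 4 (4.99 scaled TPM, the other 4 mice 7.47 to 8.26, gap 0.758 of the range). WT HFHS replicate 4 had a smooth muscle score of 1.70 log2 units above the median library and GPx4+/- HFHS replicate 5 of 0.88, and the part of these cells in the values was not tested.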

How the results depend on the processing

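Across the alternatives, 1245 values of single genes kept their direction and side of the threshold, 10 lost a call and 15 gained one. Of the values listed as main results, 451 stayed the same and 31 moved. Together with the fits that left out 1 mouse, more than 15 calls were gained. The counts of single genes therefore do not cover every fit. Over both genotypes the diet gave 1 collagen call, and 2 with a pseudocount of 0.1, with protein-coding transcripts alone, and with the fibroblast score as covariate (Col4a3 joined Col6a3 each time), 3 with quantile normalization and 3 without the 6 libraries high in tissue markers, and 5 with array weights, while calls over all genes, 998 with the settings as reported, were 992, 1076, 1024, 1048, 751 and 1261 in these 6 in the order given. In GPx4+/- mice there were 2 calls with quantile normalization and with array weights and 0 without a filter on low values or with GENCODE basic transcripts, while calls over all genes, 400 as reported, were 364, 394, 235 (of 25881 tested) and 391 (of 11344). In WT mice array weights gave 1, Col27a1, with 405 calls over all genes in place of 142. The WT median moved to 0.065 with the smooth muscle score. With single mice left out the calls ran from 0 to 1 in WT (1 without WT CNTL replicate 3), 0 to 1 in GPx4+/-, 1 to 5 over both (5 without WT HFHS replicate 5) and 0 to 2 for carnosine against WT CNTL, and stayed at 0 for genotype, interaction and carnosine. Over all genes these fits gave 36 to 202 calls in WT (202 without WT CNTL replicate 3), 191 to 484 in GPx4+/- and 4 to 78 for carnosine against WT CNTL. For genotype, interaction and carnosine at most 7 of all genes passed. TPM left unscaled moved the median of all genes to -0.10 in the GPx4+/- diet comparison and -0.11 for the interaction, and in the former the collagen median was 0.15. Leaving out the 6 libraries, and the basic set, were alternatives added once the data had been seen.

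Replicate numbers are shared by the groups but mark different mice. Of 50 same-number pairs 10 had deviations correlated above 0.1 (median -0.0047, 0.019 over all pairs between groups), and 4 of 25 mice correlated best with their own number. With the replicate block 2 collagen genes passed over both genotypes (Col4a3 and Col6a3), 1 in GPx4+/- and 0 in the other comparisons, with 876 and 306 calls over all genes in the former 2. TPM keep no depth, so small differences of the low chains cannot be weighed against counting error.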
